A study of Mus musculus with 24 samples.

Results

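The genes described here are 49 ligands and receptors of the ephrin, semaphorin, slit and netrin families, taken by their symbols from a list. A gene's values are those of its brightest probe set, by the mean over all arrays, and 48 of the 49 had a probe set carrying that symbol alone (119 probe sets in all, 35 genes with more than 1 and 13 with 1). Ephb2 was not analysed here. Robo3, a receptor of the roundabout family, lay below the filter on low values on all 24 arrays, between 4.82 and 5.58 on the log2 scale, so 47 members were tested among 14879 genes. A gene was tested where it exceeded the 30th percentile of the array (5.85 to 5.93) on at least 3 arrays. Values are the deposited log2 signal throughout, and a difference of 1 on that scale is a doubling of signal.

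RNA came from mouse embryos of the C57B6 background at embryonic day 12.5. Mice carrying Wnt1cre and 1 floxed Tgfbr2 allele (Wnt1cre;Tgfbr2fl/+) were crossed to Tgfbr2 fl/fl mice, and mutants, labelled Tgfbr2 Knockout, were recognised by their palate and skull defects. Controls were littermates, and no source used here gives their genotype. The Wnt1-Cre driver acts in the neural crest and its descendants, so epithelium, endothelium and skeletal muscle cells of the knockout jaws would keep the receptor gene. The mandible and the maxilla of each genotype were cut into a distal and a proximal end, giving 8 groups of 3 arrays, numbered 1 to 3. No label states whether the 3 arrays of a group hold separate embryos, and p-values measure only the spread between these arrays. In whole tissue, fewer cells of a type and less RNA per cell cannot be told apart.

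Ephrins are membrane-bound ligands of the Eph receptor tyrosine kinases, and cells that meet through them usually repel or sort from each other. Secreted class 3 semaphorins act through neuropilins and plexins, slits act through Robo receptors, and netrin-1 attracts axons through Dcc and repels them through receptors of the Unc5 family. In the face these families steer migrating neural crest cells, branches of the trigeminal nerve and growing vessels, and ephrin-B1 is needed for the midface and palate to form.

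The libraries differed in ways that bear on the results below. Tgfbr2 itself was 11.78 ± 0.29 in controls and 12.11 ± 0.40 in knockouts (SD, n = 12), a difference of 0.34 (SE 0.11) with an adjusted p of 0.112 in limma's test, so its signal was not lower in knockouts. Where the probes lie relative to the deleted part was not examined. In 9 arrays the profile was closer to the group from that jaw's opposite end than to its own group. Among them were both ends of control maxilla number 1 (mean correlation 0.54 with its group and 0.81 with the other end for the proximal array, 0.36 and 0.81 for the distal array) and both ends of knockout mandible number 1 (0.44 and 0.54 for the proximal array, 0.33 and 0.67 for the distal array). The labels of these 4 arrays are doubted as to the end, and results that rest on them are given with and without them. Proximal knockout maxilla number 3 was also closer to the opposite end (0.20 with its group and 0.33 with the other end). So were distal control maxilla numbers 2 and 3, distal knockout mandible number 2 and proximal knockout mandible number 3. The correlations of these last arrays include the doubted arrays of their jaw, so they are not independent of that doubt. Neither they nor proximal knockout maxilla number 3 were among the 4 left out. The 4 control arrays numbered 2 carried Y-linked signal (Eif2s3y between 10.2 and 10.4) and the other 20 did not, so sex is uneven between the genotypes and cannot be told apart from the array number in controls. Of 7 markers of facial mesenchyme all 7 were measured, and their mean lay between 11.14 and 12.28 on every array. It was lowest on proximal knockout maxilla numbers 1 and 2 (11.29 and 11.14). Hand2, a factor of the mandibular arch, was between 11.9 and 13.6 on control mandible arrays and between 5.06 and 6.64 on control maxilla arrays. In knockouts it was between 10.8 and 13.4 in the mandible and between 4.87 and 8.28 in the maxilla. In the proximal maxilla it was 7.44, 7.56 and 7.88 in knockouts and 5.12, 6.64 and 6.39 in controls. That difference was not called (adjusted p = 0.163 in limma's test).

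Over the 8 groups the members differed widely in how much they moved. The group means of Dcc spanned 2.77 on the log2 scale, those of Robo2 1.96 and those of Epha3 1.54. Those of Sema3e spanned 2.59, but its lowest group mean, 5.93 in the distal control mandible, lies at the 30th percentile of the arrays, so that span reaches down to the filter on low values. At the other extreme the group means of Sema3f, a repellent that acts through neuropilin 2, spanned 0.066 on the same scale, which was less than its residual SD of 0.11.

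**Figure D1:**
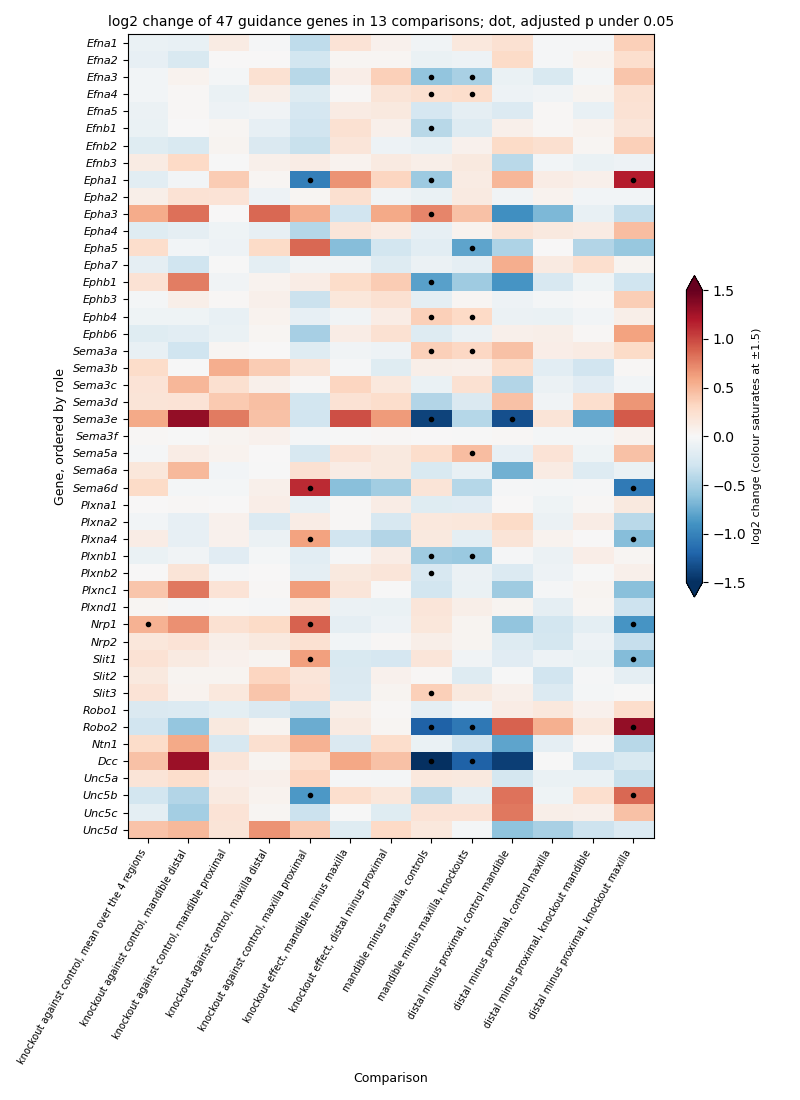
Change on the log2 scale of the 47 tested members (rows, ordered by role) in the 13 comparisons (columns), coloured from blue for a lower to red for a higher value on the first-named side, with colour saturating at 1.5 in either direction. A dot marks an adjusted p under 0.05, and the dots lie mainly in the columns of mandible against maxilla, in the proximal knockout maxilla and in the ends of the knockout maxilla.

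The jaws. Mandible and maxilla differed in 14 of 47 members in controls, 5 higher and 9 lower in the mandible, where 30.9% of all genes were called at an adjusted p under 0.05. In knockouts 9 members differed, 4 higher and 5 lower, against 25.4% of all genes. The share of members called was 29.8% in controls and 19.1% in knockouts, near or below the share of all genes in each. The members' median difference was -0.10 in controls and -0.04 in knockouts, beside 0.02 and 0.03 over all genes. The arrays of the jaws did not overlap in 7 members in controls, where this held for 16.7% of all genes, and in 2 members in knockouts, where it held for 8.43%.

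Of the 14 members called in controls and the 9 called in knockouts, 7 were called in both with the same sign, which is 50% of the first and 77.8% of the second set. Over all genes 2579 were shared, 56.1% of those called in controls and 68.3% of those called in knockouts. The 7 were Ephb4, Efna4 and Sema3a, higher in the mandible, and Dcc, Robo2, Efna3 and Plxnb1, higher in the maxilla. The genotypes share no arrays, and 13 of the 14 members called in controls had the same sign in knockouts (92.9%), as did 97.6% of all genes called in controls.

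Among these 7, 4 have an upstream sequence in the RefSeq table used here (GRCm38.p6) that may be shown, Ephb4, Efna3, Plxnb1 and Robo2. They are printed as the 250 bases that end just before the annotated start, 5′ to 3′ on the gene's strand, with capitals for the letters CAGAC or, on the other strand, GTCTG, the core of the element bound by SMAD proteins. SMADs carry the signal of the receptor that Tgfbr2 encodes. Where a gene has more than 1 annotated start, the window with the most matches is shown. The windows are at chr5:137349859-137350108 on the plus strand for Ephb4, chr3:89321769-89322018 on the minus strand for Efna3, chr9:109095186-109095435 on the plus strand for Plxnb1 and chr16:75092771-75093020 on the minus strand for Robo2.
Ephb4: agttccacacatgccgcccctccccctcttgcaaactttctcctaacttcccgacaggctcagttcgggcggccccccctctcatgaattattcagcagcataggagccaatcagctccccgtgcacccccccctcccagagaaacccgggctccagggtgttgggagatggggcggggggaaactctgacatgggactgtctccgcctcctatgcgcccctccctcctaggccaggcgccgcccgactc
Efna3: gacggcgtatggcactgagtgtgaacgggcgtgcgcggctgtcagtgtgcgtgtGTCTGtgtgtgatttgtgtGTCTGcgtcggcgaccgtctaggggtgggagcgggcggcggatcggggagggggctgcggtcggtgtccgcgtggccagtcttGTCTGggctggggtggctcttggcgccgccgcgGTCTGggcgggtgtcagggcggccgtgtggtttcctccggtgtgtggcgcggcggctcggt
Plxnb1: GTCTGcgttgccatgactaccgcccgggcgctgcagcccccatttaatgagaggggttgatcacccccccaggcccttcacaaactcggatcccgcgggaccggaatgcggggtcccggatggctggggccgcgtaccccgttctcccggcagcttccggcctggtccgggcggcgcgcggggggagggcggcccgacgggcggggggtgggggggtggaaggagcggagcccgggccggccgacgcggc
Robo2: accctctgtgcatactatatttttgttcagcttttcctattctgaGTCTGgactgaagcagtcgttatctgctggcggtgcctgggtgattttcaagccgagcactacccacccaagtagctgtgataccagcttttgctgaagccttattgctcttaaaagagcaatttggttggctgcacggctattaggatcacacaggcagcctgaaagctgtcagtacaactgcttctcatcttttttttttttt
The core occurs 4 times in the Efna3 window, 1 time each in those of Plxnb1 and Robo2, and not in that of Ephb4. The windows of Efna3 and Plxnb1 are rich in CG dinucleotides (31 and 30), that of Ephb4 has 12 and that of Robo2 has 4. Over the members, 18 of the 39 genes with an entry held the core in a window (46.2%), against 42.2% of all 32851 windows of the table. The E-box CATCTG, or CAGATG on the other strand, which Twist and Hand factors bind, was in 3 of 39 members (7.69%) and in 14.4% of all windows. The homeodomain core TAATTA, which reads the same on both strands, was in 3 of 39 members (7.69%) and in 4.84% of all windows. The members' share counts genes, some with several windows, and the background counts windows.

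Members higher in the mandible in both genotypes had small differences with little spread. Ephb4, the receptor for ephrin-B2 that is best known from veins, ran from 11.48 through a median of 11.53 to 11.64 on the 6 control mandible arrays and from 11.04 through 11.19 to 11.32 on the 6 control maxilla arrays. The jaws did not overlap, and the difference was 0.36 (SE 0.065, adjusted p = 0.000615 in limma's test). In knockouts Ephb4 ran from 11.38 through 11.45 to 11.55 in the mandible and from 10.96 through 11.16 to 11.33 in the maxilla, again without overlap, a difference of 0.30 (SE 0.065, adjusted p = 0.00303 in limma's test).

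Efna4, an ephrin anchored to the membrane by a lipid, ran from 11.05 through 11.17 to 11.33 on control mandible arrays and from 10.76 through 10.96 to 11.11 on control maxilla arrays. The jaws overlapped, and the difference was 0.24 in controls and 0.26 in knockouts (SE 0.078 in each, adjusted p = 0.0243 and 0.0205 in limma's test). Sema3a, a secreted repellent of sensory axons that acts through neuropilin 1, ran from 10.95 through 11.21 to 11.49 on control mandible arrays and from 10.62 through 10.88 to 11.02 on control maxilla arrays. It differed by 0.36 in controls (SE 0.091, adjusted p = 0.00628 in limma's test) and by 0.31 in knockouts (adjusted p = 0.0189). In knockouts Sema3a did not pass in 2 of the 24 fits that left out 1 array. Its difference there was 0.13 without knockout maxilla proximal numbers 1 and 2. Its other 2 probe sets gave differences of 0.54 to 0.95 in controls, in the same direction.

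Several receptors were higher in the maxilla. Dcc, the attractive netrin receptor, ran from 7.06 through 8.02 to 8.85 on control mandible arrays and from 9.56 through 9.78 to 10.14 on control maxilla arrays. All 6 mandible arrays were below all 6 maxilla arrays, and the difference was -1.80 (SE 0.34, adjusted p = 0.000756 in limma's test). Within controls it was -2.50 between the distal ends and -1.10 between the proximal ends. In knockouts Dcc differed by -1.22 (SE 0.34, adjusted p = 0.0144 in limma's test), with overlap, and the proximal knockout maxilla spread from 9.03 to 11.85. Without number 2 of the proximal knockout maxilla that difference was -0.77 (adjusted p = 0.00747 in limma's test). Of its other 2 probe sets 1 gave -1.49 in controls and the other 0.09.

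Robo2, a receptor for slits that is found on cranial sensory neurons and in other tissues, ran from 7.09 through 7.50 to 8.80 on control mandible arrays and from 8.24 through 9.12 to 9.67 on control maxilla arrays. Its difference was -1.21 in controls (SE 0.27, adjusted p = 0.00273 in limma's test) and -1.07 in knockouts (adjusted p = 0.0084), with overlap in each. It has 1 probe set. Plxnb1, a plexin that binds class 4 semaphorins, ran from 9.91 through 10.04 to 10.28 on control mandible arrays and from 10.45 through 10.62 to 10.78 on control maxilla arrays, without overlap. The difference of Plxnb1 was -0.54 in controls (SE 0.13, adjusted p = 0.00354 in limma's test) and -0.56 in knockouts (adjusted p = 0.004), and it was between -0.50 and -0.59 at each end of each genotype. Without the 4 arrays of doubted end it was -0.36 in knockouts (adjusted p = 0.0221 in limma's test).

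Efna3, another lipid-anchored ephrin, ran from 8.33 through 8.51 to 8.64 on control mandible arrays and from 8.65 through 9.11 to 9.38 on control maxilla arrays, which only just did not overlap. It differed by -0.59 in controls (SE 0.13, adjusted p = 0.00318 in limma's test) and by -0.48 in knockouts (adjusted p = 0.0145), and its other probe set gave -0.63 and -0.61.

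**Figure D2:**
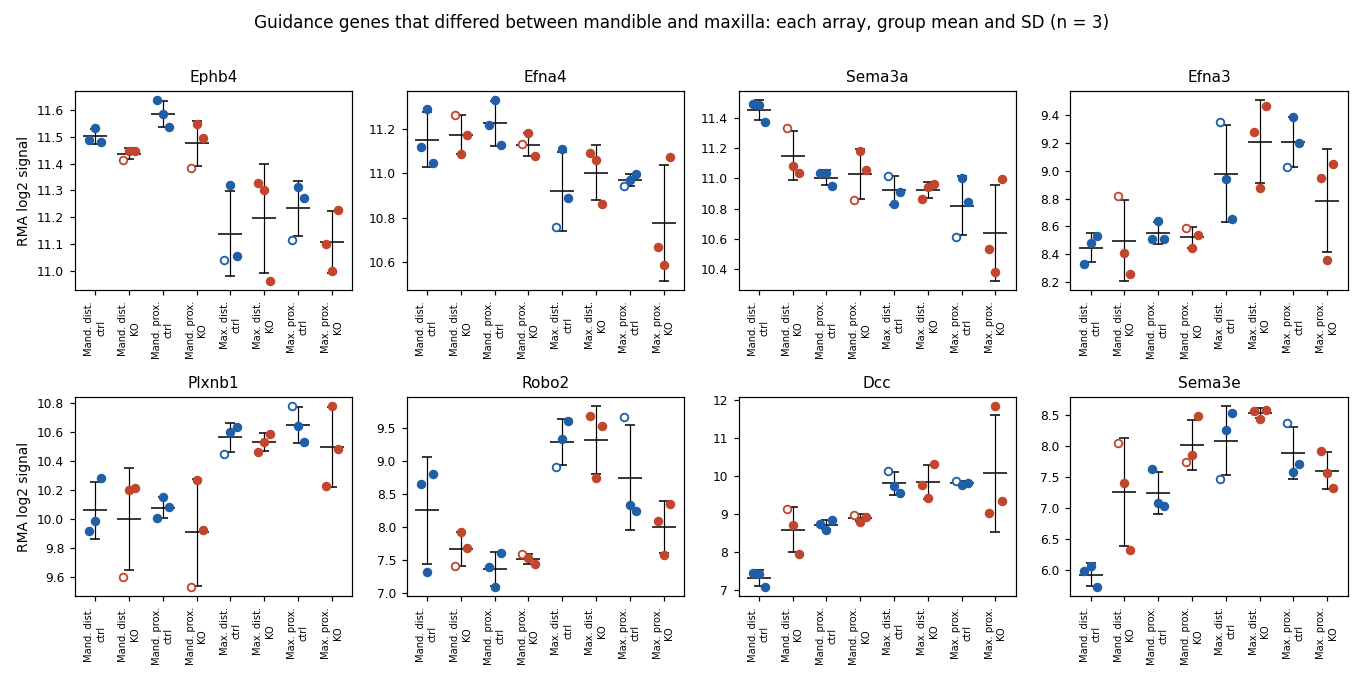
Log2 signal of Ephb4, Efna4, Sema3a, Efna3, Plxnb1, Robo2, Dcc and Sema3e on each array, by jaw, end and genotype (blue for controls, red for knockouts, open circles for the 4 arrays whose end is doubted), with the mean and SD of each group of 3. Each panel has its own axis, which does not start at 0, and the lowest of the 12 mandible arrays is 11.38 in Ephb4 while the highest of them is 9.12 in Dcc.

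Further members were called between the jaws in 1 genotype. In controls Sema3e, the ligand of plexin D1, was lower in the mandible, with a difference of -1.39 (SE 0.25, adjusted p = 0.000469 in limma's test), running there from 5.73 through 6.55 to 7.63 and in the maxilla from 7.47 through 7.98 to 8.52. The 3 distal mandible arrays of Sema3e lay near the filter on low values, 1 of them below it, so the size of this difference is against background there. Another 2 probe sets of Sema3e gave -0.63 to -0.25. With the mean of its probe sets the difference was -0.63 (adjusted p = 0.0207 in limma's test). In controls Ephb1 was lower in the mandible, with a difference of -0.81 (SE 0.20, adjusted p = 0.00494 in limma's test), from 7.85 through 8.98 to 9.32 against 9.42 through 9.60 to 9.91, without overlap. Epha3, which binds ephrin-A5, was 0.73 higher there (SE 0.19, adjusted p = 0.00666 in limma's test), from 11.84 through 12.35 to 12.94 against 10.91 through 11.62 to 12.25, and its other 3 probe sets gave 0.88 to 1.56. Epha1, an Eph receptor of epithelia, was lower, with a difference of -0.54 (SE 0.16, adjusted p = 0.0168 in limma's test). It ran from 7.50 through 8.20 to 8.38 against 8.29 through 8.58 to 8.91, but another of its probe sets gave 0.18, in the opposite direction. With the mean of its probe sets Epha1 was not called between the jaws (-0.13, adjusted p = 0.223 in limma's test).

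The remaining members called in controls were Efnb1 (-0.42), Plxnb2 (-0.24) and Slit3 (0.35). Efnb1, the X-linked ephrin needed for the midface, ran from 10.59 to 10.81 in the control mandible and from 10.86 to 11.37 in the control maxilla, without overlap. In knockouts Epha5 was lower in the mandible, with a difference of -0.79 (SE 0.26, adjusted p = 0.0361 in limma's test), from 7.22 through 7.93 to 8.89 against 8.16 through 8.72 to 9.81. Sema5a, a membrane-bound semaphorin, was 0.47 higher in the knockout mandible (SE 0.14, adjusted p = 0.0227 in limma's test), from 11.75 through 11.95 to 12.12 against 10.70 through 11.67 to 11.72, without overlap. Leaving out 1 array at a time, Epha5 did not pass in 8 of 24 fits and Sema5a in 2. Without knockout maxilla proximal numbers 1 and 2 the difference was -0.44 for Epha5 and 0.24 for Sema5a. Whether these members differ between the genotypes is the contrast of the knockout effect between jaws, in which no member was called.

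By role, 1 of 8 ephrins was higher and 2 lower in the control mandible, and of 10 Eph receptors 2 were higher and 2 lower. Of 9 semaphorins 1 was higher and 1 lower, of 9 plexins and neuropilins 2 were lower, and of 3 slits 1 was higher. Of 2 tested Robo receptors 1 was lower and of 5 netrin receptors 1 was lower, while Ntn1, the netrin ligand, was not called (-0.09).

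Markers of other cell types differed between the jaws as well. Of 4 measured genes of eye and forebrain, 3 were lower in the control mandible, and their mean was 5.51 to 6.02 on control mandible arrays and 8.25 to 8.62 on control maxilla arrays. In controls the maxilla was also higher in 7 of 10 epithelial genes, and the mandible was higher in 8 of 9 muscle genes and 2 of 9 endothelial genes. Of 12 neuronal genes, 3 were higher and 4 lower in the control mandible. Of 7 facial mesenchyme genes, 2 were higher in the mandible in controls and 3 in knockouts, and 0 were lower in either. Of 5 measured glial genes 2 were lower in the mandible in each genotype. In knockouts 10 of 12 neuronal genes were lower in the mandible, where the list's mean was 8.24 to 8.71, against 9.07 to 12.52 in the maxilla. Also in knockouts 8 of 9 muscle genes and 1 of 9 endothelial genes were higher in the mandible. All 4 measured eye and forebrain genes were lower there, and 0 of 10 epithelial genes were called. The part of these cell types in the differences of the guidance genes was not tested. Without the 4 arrays of doubted end, 14 members were called in controls (23.2% of all genes) and 8 in knockouts (19.4%), and the 4 control arrays with Y-linked signal left out gave 9 in controls (14.5% of all genes). In knockouts the count was 5 without knockout maxilla proximal number 2 (22.1%), and 5 without numbers 1 and 2 (15.1%).

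The ends of the control mandible. Distal and proximal control mandible differed in 1 of 47 members, Sema3e, where 3.45% of all genes were called. The signal of Sema3e was 5.997, 6.07 and 5.73 on the distal arrays and 7.63, 7.08 and 7.02 on the proximal arrays. The ends did not overlap, and the distal values lay near the 30th percentile of the arrays, so the difference of -1.31 (SE 0.35, adjusted p = 0.0452 in limma's test) is against background. Another 2 probe sets of Sema3e gave -0.76 to -0.51. With the mean of its probe sets Sema3e was not called (-0.74, adjusted p = 0.146 in limma's test). Sema3e did not pass when any 1 of these 6 arrays was left out, and the count of members called was then 0 or 1. The members next in line were Sema6a (-0.72, SE 0.20, adjusted p = 0.0549) and Epha3 (-0.92, SE 0.26, adjusted p = 0.0613), which did not pass limma's test.

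In 23 of 47 members the 3 distal arrays did not overlap the 3 proximal ones, where this held for 30.3% of all genes. The same-numbered arrays of the control mandible deviated together from their group means (correlations 0.30, 0.41 and 0.42). Whether the number pairs the ends is not known, as the labels do not say what it marks. Groups of different genotype also gave such correlations, as did distal control maxilla and distal knockout mandible (0.43, 0.16 and 0.29). A fit to these 6 arrays alone, without the number, called 12 members, where 9.67% of all genes were called. With the number added as a block over the 6 arrays 15 members passed, 5 higher and 10 lower distally, where 12.8% of all genes were called, and with the number as a block over all 24 arrays 2 passed (5.09%). The 15 were the ligands Sema3e (-1.31), Ntn1 (-0.79), Sema6a (-0.72), Efnb3 (-0.41), Sema3a (0.44) and Sema3d (0.44). They were also the receptors Dcc (-1.41), Epha3 (-0.92), Unc5d (-0.60), Nrp1 (-0.59), Plxnc1 (-0.54), Unc5a (-0.27), Epha7 (0.55), Unc5c (0.79) and Unc5b (0.82). In this block fit, which was chosen after the data were seen, members of the netrin system lay on either side. Netrin-1, Dcc, Unc5a and Unc5d were lower distally and Unc5b and Unc5c higher. None of these passed in the fit to all 24 arrays without the block.

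Ntn1 was 10.004, 10.22 and 9.93 on the distal arrays of the control mandible and 11.04, 10.94 and 10.53 on the proximal arrays. Dcc was 7.45, 7.41 and 7.06 distally and 8.72, 8.59 and 8.85 proximally. Neither gene overlapped between the ends, and both were lower distally on all 3 arrays. Unc5c, a repulsive netrin receptor, was 11.90, 11.98 and 11.76 distally and 11.14, 11.02 and 11.10 proximally. Unc5b, known from the tips of growing vessels, was 10.46, 10.73 and 10.75 distally and 9.82, 9.80 and 9.85 proximally. These receptors were the reverse of Dcc, higher on all 3 distal arrays.

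Sema6a, a membrane-bound semaphorin, was 9.33, 9.51 and 9.23 distally and 10.13, 10.01 and 10.08 proximally. Epha3 was 11.95, 11.93 and 11.84 distally and 12.75, 12.79 and 12.94 proximally. Sema3a was 11.49, 11.49 and 11.37 distally and 11.03, 11.04 and 10.95 proximally, so the ligand of neuropilin 1 was higher distally while Nrp1 was lower there (11.36, 11.20 and 10.83 against 11.72, 11.82 and 11.62).

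Neuronal and glial genes followed the same axis in the control mandible. Of 12 neuronal genes 7 were lower distally and of 5 measured glial genes all 5 were. The neuronal list's mean was 7.97 to 8.46 distally and 9.63 to 10.36 proximally, and the glial list's mean 7.77 to 8.07 and 9.60 to 9.82. The mean of 9 muscle genes was 6.59 to 10.79 distally and 11.45 to 11.78 proximally, with 1 gene called lower. The part of these cells in the differences of the guidance genes was not tested.

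**Figure D3:**
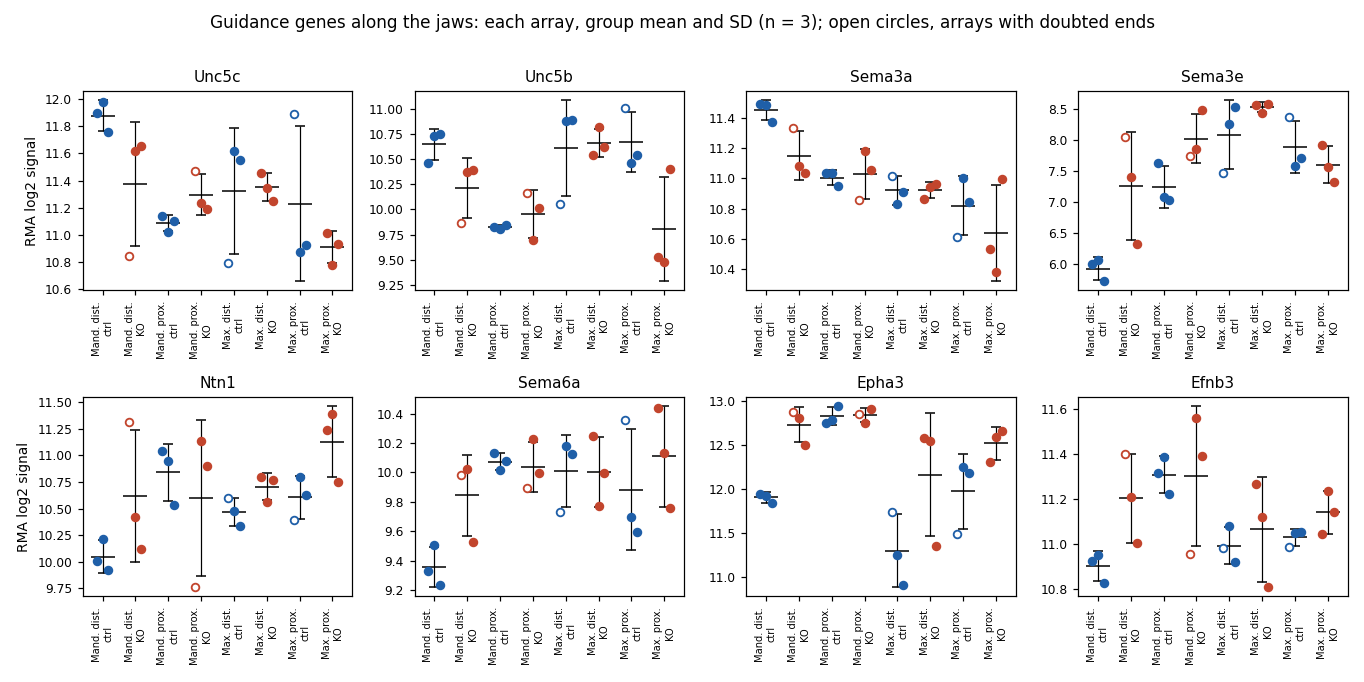
Log2 signal of Unc5c, Unc5b, Sema3a, Sema3e, Ntn1, Sema6a, Epha3 and Efnb3 on each array, by jaw, end and genotype (blue for controls, red for knockouts), with the mean and SD of each group of 3 and axes that do not start at 0. Open circles are the 4 arrays whose end is doubted, and in the maxilla the open control circles of Unc5c lie at 10.79 distally and 11.89 proximally, the reverse of the other control arrays.

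The ends in the other jaws. In the control maxilla no member was called, and neither was any of 14879 genes (0%), with 1 member and 103 genes at an unadjusted p under 0.05 in limma's test. The members with the smallest p were Epha3 (-0.67), Unc5d (-0.49) and Slit2 (-0.28), each with an adjusted p of 1.00 and overlapping ends. The ends overlapped in all 47 members, where 6.46% of all genes did not overlap. Epha3 was 11.74, 11.25 and 10.91 in the distal control maxilla and 11.49, 12.25 and 12.18 in the proximal. Unc5d was 8.11, 9.19 and 8.68 distally and 9.29, 9.05 and 9.11 proximally.

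Control maxilla number 1, whose end is doubted, stood apart in Unc5c, a member chosen here after its values were seen. Unc5c was 10.79, 11.62 and 11.56 in the distal control maxilla and 11.89, 10.88 and 10.93 in the proximal, so number 1 was low where numbers 2 and 3 were high and high where they were low. The doubted arrays were picked by their likeness to the other end, so the ends of the control maxilla and of the knockout mandible cannot be tested again without them, and the values without them are a description. Without them Unc5c was 0.69 higher in the distal control maxilla, with 2 arrays at each end, and it was the 1 member past the threshold, as were 0.699% of all genes. None of the 4 doubted arrays belongs to the control mandible or the knockout maxilla, where they enter the shared estimate of the spread alone. With them left out the fit called 9 members in the control mandible, where 6.62% of all genes were called, among them Unc5c, Ntn1, Unc5b, Sema6a, Sema3a and Epha3 with the values given above. As the arrays left out were picked for being unlike their own groups, which bears on that spread, this count too is a description.

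In the knockout mandible none of the 14879 genes was called between the ends (0%), members included, with 1 member and 72 genes at an unadjusted p under 0.05 in limma's test. The smallest p-values among the members belonged to Sema3e (-0.76), Epha7 (0.25) and Epha5 (-0.44), each with an adjusted p of 1.00 and overlap. The ends again overlapped in all 47 members, where 1.91% of all genes did not overlap. Sema3e was 8.05, 7.39 and 6.32 in the distal knockout mandible and 7.73, 7.84 and 8.48 in the proximal. Without the doubted arrays 0 members and 0.108% of all genes were called there.

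In the knockout maxilla 7 members were called between the ends, 3 higher and 4 lower distally, where 6.16% of all genes were called. Robo2 was 1.31 higher distally (SE 0.38, adjusted p = 0.0496 in limma's test), with 9.69, 8.73 and 9.53 distally and 8.09, 7.57 and 8.35 proximally. The other 6 were Epha1 (1.17), Sema6d (-1.06), Nrp1 (-0.88), Unc5b (0.86), Slit1 (-0.65) and Plxna4 (-0.64), with adjusted p between 0.0109 and 0.044 in limma's test. Another probe set of Epha1 gave -0.04, and with the mean of its probe sets Epha1 was 0.40 and not called. The other 3 probe sets of Sema6d gave -0.53 to -0.05. In 15 members the 3 distal arrays of the knockout maxilla did not overlap the 3 proximal ones, where this held for 21.2% of all genes. The 6 were also called between knockout and control in the proximal maxilla, and the comparisons share the 3 proximal knockout maxilla arrays. Without the doubted arrays, which are not in these groups but enter the shared estimate of the spread, 12 members were called in the knockout maxilla, where 8.9% of all genes were. As those arrays were picked for being unlike their own groups, that count is a description. Leaving out 1 array at a time, the count was 2 without distal number 2 (1.36% of all genes) and 1 without distal number 3 (1.87%). It was 0 without proximal number 1 (0.276%), 1 without proximal number 2 (0.215%) and 19 without proximal number 3 (21.8%). Over all 24 such fits Robo2 did not pass in 19 and Unc5b in 15. Epha1, Sema6d, Nrp1, Slit1 and Plxna4 each did not pass in 2 to 4 of them. A fit to the arrays of the 2 groups compared alone called no member.

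Markers of other cell types moved with the ends of the knockout maxilla. Of 12 neuronal genes 7 were lower distally, and their mean was 9.07 to 9.77 on the distal arrays and 10.50 to 12.52 on the proximal arrays. Of 10 epithelial genes 7 were higher distally, with a mean of 11.14 to 11.41 distally and 8.52 to 10.64 proximally. Of 5 measured glial genes 1 was lower distally. The part of these cells in the differences of the guidance genes was not tested.

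Knockout against control. Averaged over the 4 regions, 1 of 47 members was called, Nrp1, where 0.47% of all genes were called. Nrp1 encodes neuropilin 1, a co-receptor of class 3 semaphorins and of vascular growth factor. Over 12 arrays Nrp1 ran from 11.17 through a median of 11.91 to 12.71 in knockouts and from 10.77 through 11.38 to 11.82 in controls. The genotypes overlapped, and Nrp1 was 0.52 higher in knockouts (SE 0.11, adjusted p = 0.0347 in limma's test). The difference was 0.68 in the distal mandible, 0.23 in the proximal mandible, 0.29 in the distal maxilla and 0.89 in the proximal maxilla, and the other 3 probe sets gave 0.38 to 0.47 over the regions.

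The call of Nrp1 was not stable to the choice of arrays. Leaving out 1 array at a time, its adjusted p ranged from 0.0024 to 0.0781 and it did not pass in 17 of 24 fits, with a difference between 0.47 and 0.57 in all of them. The count of members called ran from 0 to 10, and the share of all genes called moved with it, from 0.0403% to 14.3%. The count was 4 without control mandible distal number 2 (3.48% of all genes) and 3 without control maxilla distal number 1 (2.24%). It was 6 without number 3 of the distal knockout mandible (5.59%), 6 without number 3 of the distal knockout maxilla (3.08%), and 10 without knockout maxilla proximal number 3 (14.3%). No member was called without the 4 doubted arrays, without the 4 arrays with Y-linked signal, or without knockout maxilla proximal 1 and 2.

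The 250 bases before the annotated start of Nrp1 (GRCm38.p6, chr8:128358823-128359072, plus strand) are shown because Nrp1 was the member called over the regions of this TGF-beta receptor knockout.
Nrp1: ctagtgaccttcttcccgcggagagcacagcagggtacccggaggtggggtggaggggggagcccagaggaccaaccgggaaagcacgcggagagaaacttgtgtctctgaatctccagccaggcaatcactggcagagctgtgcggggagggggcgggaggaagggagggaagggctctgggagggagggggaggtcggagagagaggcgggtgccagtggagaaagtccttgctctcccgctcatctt
This window holds none of the SMAD, E-box or homeodomain letters searched, and 11 CG dinucleotides.

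Epha3 and Robo1 followed Nrp1 without passing. Epha3 ran from 11.36 through 12.63 to 12.91 in knockouts and from 10.91 through 11.94 to 12.94 in controls, a difference of 0.56 (SE 0.13, adjusted p = 0.0521 in limma's test). Robo1, a slit receptor, ran from 11.73 through 12.04 to 12.29 in knockouts and from 11.97 through 12.21 to 12.47 in controls, a difference of -0.22 (SE 0.055, adjusted p = 0.0543 in limma's test). In all 12 members reached an unadjusted p under 0.05 (25.5%), as did 23.2% of all genes. The median difference of the members was 0.02, beside 0.01 over all genes, and 26 of 47 members were positive (55.3%), as were 53.7% of all genes.

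The knockout effect had the same sign in all 4 regions in 15 of 47 members (31.9%), where this held for 28.8% of all genes. Of these 11 were higher in knockouts, the ligands Sema3c, Slit1, Slit2 and Slit3 and the receptors Epha3, Plxnc1, Nrp1, Nrp2, Dcc, Unc5a and Unc5d. The other 4 were lower, the receptors Epha4, Epha7, Plxnb1 and Robo1. Of these 15 only Nrp1 was called over the regions.

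In 3 of the 4 regions no member was called between the genotypes. In the distal mandible 0.134% of all genes were called, and 11 members and 1881 genes had an unadjusted p under 0.05 in limma's test. The smallest p-values belonged to Sema3e (1.32, adjusted p = 0.136), Plxnc1 (0.79, adjusted p = 0.139) and Nrp1 (0.68, adjusted p = 0.196), and none of them overlapped between the genotypes. Sema3e was 8.05, 7.39 and 6.32 in the distal knockout mandible against 5.997, 6.07 and 5.73 in controls. Plxnc1, the receptor of semaphorin 7A, was 10.08, 9.51 and 9.42 against 8.82, 9.14 and 8.66. Knockout mandible number 1, whose end is doubted, was the highest of the 3 knockout arrays in each of these members. The arrays did not overlap in 15 members there, where this held for 14.5% of all genes. Muscle and glial markers were also higher in the distal knockout mandible. The mean of 9 muscle genes was 11.09 to 12.25 in knockouts and 6.59 to 10.79 in controls, with 0 genes called, and the mean of 5 glial genes was 8.83 to 9.67 and 7.77 to 8.07, with 1 gene called. Their part in the values of the guidance genes was not tested.

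In the proximal mandible 0.0538% of all genes were called, and 3 members and 425 genes had an unadjusted p under 0.05 in limma's test. These were Epha2 (0.21), Sema3e (0.77) and Sema3b (0.55), each with an adjusted p of 1.00. Sema3e was 7.73, 7.84 and 8.48 in knockouts and 7.63, 7.08 and 7.02 in controls, without overlap. The arrays did not overlap in 4 members (Efna1, Sema3e, Plxnc1 and Unc5c), all higher in knockouts, where this held for 9.45% of all genes. In the distal maxilla 0.0202% of all genes were called, and 3 members and 395 genes had an unadjusted p under 0.05 in limma's test. These were Epha3 (0.86), Slit3 (0.41) and Unc5d (0.67), each with an adjusted p of 1.00 and overlapping arrays. Epha3 was 12.59, 12.55 and 11.36 in knockouts and 11.74, 11.25 and 10.91 in controls. The arrays did not overlap in 1 member, Sema3b, where this held for 6.9% of all genes.

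The proximal maxilla was the 1 region with members called, 4 higher and 2 lower in knockouts, where 5.77% of all genes were called. The arrays did not overlap in 14 members, 8 higher and 6 lower in knockouts, where this held for 25.3% of all genes. Sema6d, a membrane-bound semaphorin that acts through plexin A1, was 12.49, 12.23 and 11.19 in knockouts and 10.68, 10.94 and 10.93 in controls. The genotypes did not overlap, knockout array number 3 was closest to the controls, and the difference was 1.12 (SE 0.22, adjusted p = 0.0144 in limma's test). Of the other 3 probe sets of Sema6d 2 had the same sign, and they gave -0.01 to 0.34. Nrp1 was 12.71, 12.22 and 11.91 in knockouts and 11.30, 11.47 and 11.41 in controls, a difference of 0.89 (SE 0.21, adjusted p = 0.0258 in limma's test), with 0.65 to 0.86 in its other 3 probe sets.

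Slit1, the slit most restricted to neural tissue, was 7.75, 7.33 and 6.83 in knockouts and 6.60, 6.72 and 6.73 in controls, a difference of 0.62 (SE 0.14, adjusted p = 0.0241 in limma's test). Plxna4, a plexin of sensory axons, was 9.19, 8.49 and 8.66 in knockouts and 8.21, 8.24 and 8.07 in controls, a difference of 0.61 (SE 0.15, adjusted p = 0.027 in limma's test). The other probe set gave 1.06 for Slit1 and 0.85 for Plxna4. In both genes all 3 knockout arrays were above the 3 control arrays.

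The members lower in the proximal knockout maxilla were Epha1 and Unc5b. Epha1 was 7.002, 7.31 and 8.26 in knockouts and 8.67, 8.48 and 8.50 in controls, a difference of -1.02 (SE 0.23, adjusted p = 0.0212 in limma's test). Another of its probe sets gave 0.10, and with their mean Epha1 was not called (-0.36, adjusted p = 0.0695 in limma's test). Unc5b was 9.53, 9.48 and 10.40 in knockouts and 11.01, 10.46 and 10.54 in controls, a difference of -0.87 (SE 0.24, adjusted p = 0.0414 in limma's test), with -1.15 in its other probe set. In each gene knockout array number 3 lay nearest to the controls.

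Neuronal, muscle, glial and epithelial genes moved with these members. Of 12 neuronal genes 8 were higher, and their mean was 12.52, 12.28 and 10.50 on the proximal knockout maxilla arrays and 9.25, 9.59 and 9.53 on the control arrays. Of 10 epithelial genes 7 were lower, with a mean of 8.52, 8.80 and 10.64 in knockouts and 11.11, 10.74 and 10.85 in controls. Of 9 muscle genes 2 were higher (11.85, 10.52 and 8.99 against 6.80, 7.56 and 7.36), and of 5 measured glial genes 3 were higher (10.87, 10.62 and 9.65 against 8.47, 9.41 and 9.29). The mean of 7 facial mesenchyme genes was 11.29, 11.14 and 11.75 in knockouts and 11.89, 11.66 and 11.72 in controls, with 0 genes called. In each list number 3 of the knockout arrays lay nearest to the controls. That array was also among the 9 whose profile was closer to the opposite end. The part of these cells in the changes of the guidance genes was not tested.

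The calls in the proximal maxilla rested on single arrays, as did those of all genes. They also rested on the 1 estimate of the spread that all 8 groups share. The knockout arrays here spread more than the controls in Sema6d (SD 0.69 against 0.15) and in Epha1 (SD 0.65 against 0.10). A fit to the arrays of the 2 groups compared alone called no member. No member was called without knockout maxilla proximal number 1 (0.242% of all genes), without number 2 (0.128%), without control maxilla proximal number 1 (0.168%), or without the 4 doubted arrays, to which that control belongs. The count was 1 without control number 2 (0.679%), 1 without control number 3 (0.692%), 17 without knockout number 3 (22.6%) and 0 without the 4 Y-linked control arrays (0.114%). Without knockout number 1 the difference was 0.40 for Slit1 and 0.40 for Plxna4. Without knockout numbers 1 and 2 it was 0.34 for Sema6d, 0.52 for Nrp1, 0.14 for Slit1, -0.29 for Epha1 and -0.27 for Unc5b. The direction of the 6 changes did not reverse in any of these fits.

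**Figure D4:**
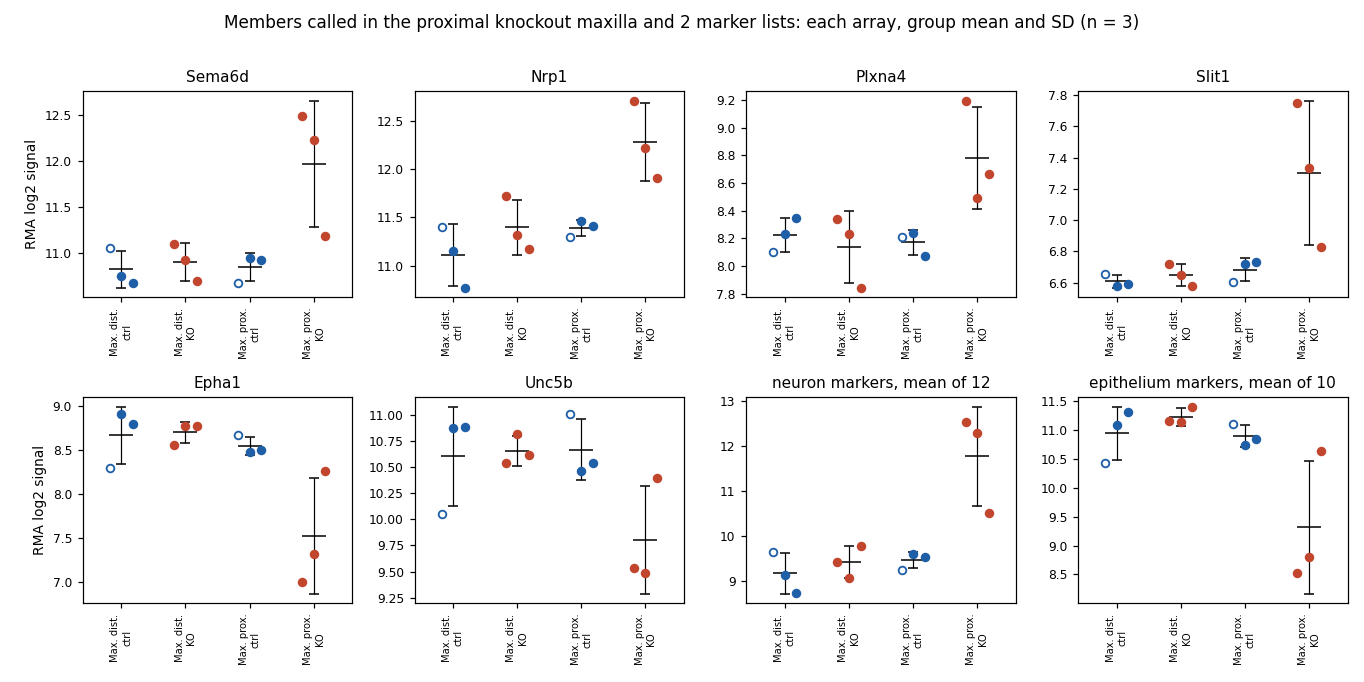
Log2 signal of Sema6d, Nrp1, Plxna4, Slit1, Epha1 and Unc5b, and the mean of 12 neuronal and 10 epithelial marker genes, on each maxilla array (blue for controls, red for knockouts, open circles for control arrays of doubted end), with the mean and SD of each group of 3 and axes that do not start at 0. Proximal knockout arrays 1 and 2 lie farthest from the controls in the neuronal and epithelial means, and array 3 lies between, at 10.50 and 10.64.

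The knockout effect did not differ between the jaws in any member by limma's test, where 0.0336% of all genes were called, with 5 members and 985 genes at an unadjusted p under 0.05. The smallest p-values belonged to Epha1 (0.67, adjusted p = 0.581), Sema6d (-0.63, adjusted p = 0.601) and Sema3e (0.97, adjusted p = 0.608), as the effect in the mandible minus that in the maxilla. Between the ends no member was called either, where 0.00672% of all genes were called, with 4 members and 639 genes at an unadjusted p under 0.05 in limma's test. There the smallest p-values belonged to Plxna4 (-0.44), Plxnb2 (0.18) and Sema6d (-0.52), each with an adjusted p of 1.00. A p that misses the threshold does not show that the effects are alike. The standard errors were 0.23 for Epha1, 0.22 for Sema6d and 0.35 for Sema3e.

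Without the 4 arrays of doubted end no member was called in any comparison of knockout with control or of the knockout effect between jaws or ends. The share of all genes called was then 0.155% over the regions, 0.0874% in the distal mandible, 0.0134% in the proximal mandible, 0.0134% in the distal maxilla and 0.101% in the proximal maxilla. For the knockout effect it was 0.0134% between the jaws and 0% between the ends.

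Other genes of guidance. A further 57 genes were followed, among them remaining Eph receptors, semaphorins and plexins, the netrin receptor neogenin (Neo1), its ligands Rgma and Rgmb, Draxin, the Flrt and collapsin response mediator families and cytoplasmic effectors. All 57 had a probe set and 56 were tested, Epha6 lying below the filter. In controls 20 of the 56 differed between the jaws, 5 higher and 15 lower in the mandible, beside 30.9% of all genes, and the largest differences were those of Dpysl5 (-1.34), Flrt1 (-1.06), Dock1 (0.74) and Vav3 (-0.65). In knockouts 21 differed, 2 higher and 19 lower, beside 25.4% of all genes, the largest being Dpysl5 (-1.86), Crmp1 (-0.97), Flrt1 (-0.94) and Draxin (-0.87). Dpysl5 and Crmp1 are collapsin response mediators that act in axons below semaphorin receptors, and Draxin is a secreted ligand of Dcc.

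Along the control mandible 10 of the 56 were called and all 10 were lower distally, beside 3.45% of all genes, with Rgmb (-1.45), Rgma (-1.29), Dpysl4 (-1.21) and Sema5b (-1.21) the largest. On that side 7 of 12 neuronal and 5 of 5 measured glial markers were lower as well. In the proximal maxilla 5 were called, all higher in knockouts, beside 5.77% of all genes and with 8 of 12 neuronal markers higher, among them Draxin (1.57), Dpysl4 (1.19), Epha10 (0.56) and Plxna3 (0.52). Between the ends of the knockout maxilla 5 were called, all lower distally, beside 6.16% of all genes and with 7 of 12 neuronal markers lower, among them Dpysl4 (-1.29), Crmp1 (-1.09), Epha10 (-0.70) and Plxna3 (-0.53). The part of neuronal and glial cells in these counts was not tested. In the other 8 comparisons none of the 56 was called, and their median over the regions was 0.12 in knockouts against controls, beside 0.01 over all genes.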

How the data were processed

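Biotin-labelled cRNA from 24 tissue samples was hybridised to single-colour arrays of 45101 probe sets. The deposited values are log2 signal, which the authors computed with RMA per the submitters' processing notes, with no version given in the sources used here. Array medians lay between 7.26 and 7.38, with 0 missing values, and 0 pairs of arrays held identical values. The number of arrays, 3 in each of 8 groups, limits the precision.

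Names came from the platform's annotation. It gave 34945 probe sets 1 symbol, 34741 of them matched by Entrez number, and these were kept. Left out were 932 probe sets with several symbols, 9160 without any and 64 control probe sets. A gene was its probe set with the highest mean (18193 genes), tested where it exceeded the 30th percentile of the array on at least 3 arrays (14879 genes). Limma 3.58.1 in R 4.3.3 fitted 8 group means with 16 residual degrees of freedom and its default prior. For each of 13 comparisons, two-sided p-values of all 14879 genes received the Benjamini-Hochberg adjustment, with calls at an adjusted p under 0.05. The code of the fit was checked on simulated data with independent noise and the same spread of a gene in every group. That check could not test unequal spread, linked arrays or doubted labels. Figures were drawn with matplotlib 3.10.9 in Python 3.11.15.

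The members and lists were chosen with earlier results of these data known. By rule the text names the members called, at most the 8 with the largest change in a comparison, or the 3 with the smallest p where fewer than 3 were called, and up to 4 called genes of the other guidance list. Members named beyond that, such as Unc5c, were chosen after their values were seen. Pairing by array number was checked by correlating the deviations of same-numbered arrays from their group means, as the labels do not say what the numbers mark. All 3 correlations exceeded 0.1 for the ends of the control mandible (0.30, 0.41 and 0.42) and for knockout against control in the distal maxilla (0.19, 0.21 and 0.11), and for none of the other comparisons of 2 groups made here. Between the jaws, which are compared over both ends, they exceeded it in the proximal controls (0.12, 0.36 and 0.15) and the distal knockouts (0.42, 0.28 and 0.30), and not in the distal controls or proximal knockouts. With the number as a fixed block the jaws gave 14 members in controls and 10 in knockouts. With the block the distal maxilla gave 0 members and 0 genes (0%).

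The alternatives were no filter or a 50th percentile filter, equal array medians, cyclic loess, the mean of all probe sets, a prior with trend and robust estimation, the groups compared alone, the number as a fixed or random block, and leaving out each array. Chosen after the data were seen were leaving out 4 arrays of doubted end, 4 with Y-linked signal, or knockout maxilla proximal 1 and 2, and the block over 2 groups. Upstream sequences came from a RefSeq table (GRCm38.p6), with 39 of 49 members matched.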

Additional observations from a re-analysis of the deposited data

Results flagged for a closer look

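In 5 guidance genes every array of a side lay above the other side in 1 region, or in 1 jaw of a genotype, and below it in another. For knockout against control this held in 3 of 47 members (6.38%) and in 2.93% of all genes, and for distal against proximal in 2 members (4.26%) and in 1.69% of all genes. The difference between these places was not tested in this form. Plxna4 was 0.12 lower in knockouts in the distal mandible (a change of -0.12) and 0.61 higher in the proximal maxilla. Plxnb2, a plexin present throughout the jaws, was 0.19 higher in knockouts in the distal mandible and changed by -0.14 in the proximal maxilla. Unc5c changed by -0.50 in knockouts in the distal mandible and by 0.21 in the proximal mandible. Each end of the knockout mandible and the proximal control maxilla hold an array of doubted end, which enters these values. Between distal and proximal ends Sema3e changed by -1.31 in the control mandible, where its distal values lay near the filter, and by 0.92 in the knockout maxilla. Plxna2 changed by 0.29 between the same ends of the control mandible and by -0.40 in the knockout maxilla. For Sema3e and Plxna2 the places compared differ in genotype as well as in jaw. In groups of 3 arrays no test for an outlying array was made.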

How the results depend on the processing

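No named gene reversed its direction under any of the 13 alternatives or on leaving out any array, over 56 pairs of gene and comparison. For many of these fits a reversal was not possible. A changed filter or prior, the compared groups alone and a block on the number keep the log2 change as it is. So does leaving out an array outside the comparison. Some alternatives also covered only part of the pairs. Single other probe sets of Epha1, Dcc and Sema6d did go the other way in comparisons given above. Counts of members called moved more. For knockout against control over the regions (1 member), the count was 3 with the 50th percentile filter, 2 with cyclic loess, 0 with the mean of all probe sets, 3 with trend and robust estimation, 4 with the array number as a fixed block and 0 with it as a random block within genotype (consensus correlation 0.16). It was 0 without the arrays of doubted end, 0 without those with Y-linked signal and 0 without knockout maxilla proximal 1 and 2, and 0 to 10 on leaving out each array. For the ends of the control mandible (1) the count was 0 with no filter, 2 with equal medians, 3 with the mean of probe sets, 12 with only the groups compared, 2 with the fixed block, 6 with the random block, 15 with the block over the 2 groups, 9 without doubted arrays and 0 without Y-linked ones, and 0 to 4 by array. For knockout against control in the proximal maxilla (6) it was 0 with only the groups compared, 0 without doubted arrays, 0 without Y-linked ones, 0 without knockout arrays 1 and 2, and 0 to 17 by array. For the jaws in controls (14) it was 9 without Y-linked arrays and 12 to 17 by array, and in knockouts (9) it was 3 with only the groups compared, 5 without knockout maxilla proximal 1 and 2, and 5 to 11 by array. For the ends of the knockout maxilla (7) it was 3 with the mean of probe sets, 0 with only the groups compared, 12 with the random block, 12 without doubted arrays, 0 without knockout arrays 1 and 2, and 0 to 19 by array. For the ends of the control maxilla (0) it was 1 without doubted arrays and 0 to 0 by array, as in the knockout mandible. By array it was 0 to 1 in the distal mandible, 0 to 0 in the proximal mandible, 0 to 1 in the distal maxilla, 0 to 2 for the knockout effect between jaws and 0 to 1 between ends. The replicate block changed no other call by over 1.5 times. The cause of these shifts was not tested. Cyclic loess moved the median change of all genes by less than 0.1 in each comparison.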
